A study of Drosophila melanogaster with 2 samples.

Results

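The 5 genes described here handle iron in Drosophila melanogaster and were chosen by name for that role, with earlier results of these data known. These are the ferritin genes Fer1HCH, Fer2LCH and Fer3HCH, the metal transporter gene Mvl and the transferrin gene Tsf1. They are 5 of the 13945 protein-coding genes of the annotation, and each was examined over its span with 5 kb on either side on the dm6 assembly. The data were chromatin immunoprecipitation sequencing (ChIP-seq) of maf-S, the fly's small Maf leucine zipper protein, in whole embryos aged 0 to 24 hours and of both sexes. All embryos came from a transgenic line with stable expression of maf-S carrying GFP at its C-terminus, and an antibody against GFP was used for the precipitation. The series had 1 group with 2 biological replicates, numbered 2 and 3, and no second condition, so the values below describe sites and set the replicates side by side, with no test. A control experiment named in the labels was not analysed here, and all embryos come from a single transgenic line. Whole embryos mix all cell types, and the binding of maf-S in a single tissue cannot be told apart from weak binding in many.

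Ferritin stores iron inside a protein shell. In insects it is assembled from heavy and light chains in the secretory pathway and is also exported into the haemolymph. Small Maf proteins act as partners of larger leucine zipper factors, of which Cap'n'collar is the one known in flies, and in mammals the ferritin genes are known targets of the related NRF2 and small Maf dimers through antioxidant response elements.

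Each peak has a summit and a signal value assigned by the authors' peak caller, and peaks were ranked by this signal within each list, rank 1 being the strongest. The authors' thresholded list contained 3205 peaks, which were the 3205 strongest of the 30000 peaks of the pooled replicates, with signals from 72.3 to 1703 and a median of 109. The replicate lists also held 30000 peaks each, and their signals were on their own scale. The authors named the pooled and replicate lists as peaks and background. An entry outside the thresholded list can therefore be background, and is called a peak here only because it is listed. Read depth is not given in the sources used here, so no precision from counting can be stated.

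The ferritin heavy and light chain genes shared a single strong maf-S peak, and no other gene of the set had a thresholded peak. The peak lay at chr3R:30388489-30388666, with its summit at 30388524, a signal of 331 and rank 159. Its signal was 4.58 times the lowest signal of the thresholded list. The sequence under the summit of this peak is shown first. It is the intronic part of the window 100 bp either side of the summit, with the bases of the 3 summits in capitals. It is given on the plus strand of Release 6 (RefSeq), chr3R:30388424-30388579. The first capital is the summit of replicate 2, and the neighbouring pair holds the summits of replicate 3 and of the pooled list.
Ferritin summit window: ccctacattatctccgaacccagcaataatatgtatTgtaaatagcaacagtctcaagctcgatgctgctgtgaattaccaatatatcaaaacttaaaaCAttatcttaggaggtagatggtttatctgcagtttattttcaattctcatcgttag

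Fer1HCH (FBgn0015222, chr3R:30385573-30388178, minus strand) encodes the ferritin heavy chain homologue, the chain with ferroxidase activity, and Fer2LCH (FBgn0015221, chr3R:30387804-30390584, plus strand) encodes the light chain homologue. The genes stand head to head, and their annotated spans overlap by 375 bp. The summit was on the Fer2LCH side of this overlap. It lay 346 bp upstream of the outermost start site of Fer1HCH, that of transcript RA. The other start sites of Fer1HCH, used by 8 transcripts, were 664 to 924 bp away.

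Fer2LCH has 4 start sites, and the summit lay among them. It was 720 bp downstream of the start of transcript RA and 248 bp downstream of that of RB, within the first intron of both. It was 306 bp upstream of the start shared by RD and RE and 615 bp upstream of that of RC. The summit was therefore intronic for 2 of the 5 transcripts of Fer2LCH and upstream of the first exon for the other 3, as it was for every transcript of Fer1HCH. The peak itself ran from this intron into the second exon of RA and RB.

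Both replicates ranked the ferritin peak near the top. In replicate 2 it had a signal of 165 and rank 118, and in replicate 3 a signal of 168 and rank 225. Of the 13945 protein-coding genes, 177 (1.27%) had a pooled peak of the same or a higher rank within 1 kb of a start site, and the share was 0.975% in replicate 2 and 1.73% in replicate 3. Within 1 kb of a start site, 2 of the 5 genes had a thresholded summit, where 19.4% of all protein-coding genes had one. These 2 genes share the peak, so the count rests on 1 site. Both genes belong to the 4901 protein-coding genes that stand head to head with another, outermost starts within 1 kb, and 1633 of these (33.3%) had a thresholded summit within 1 kb of a start site.

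**Figure D1:**
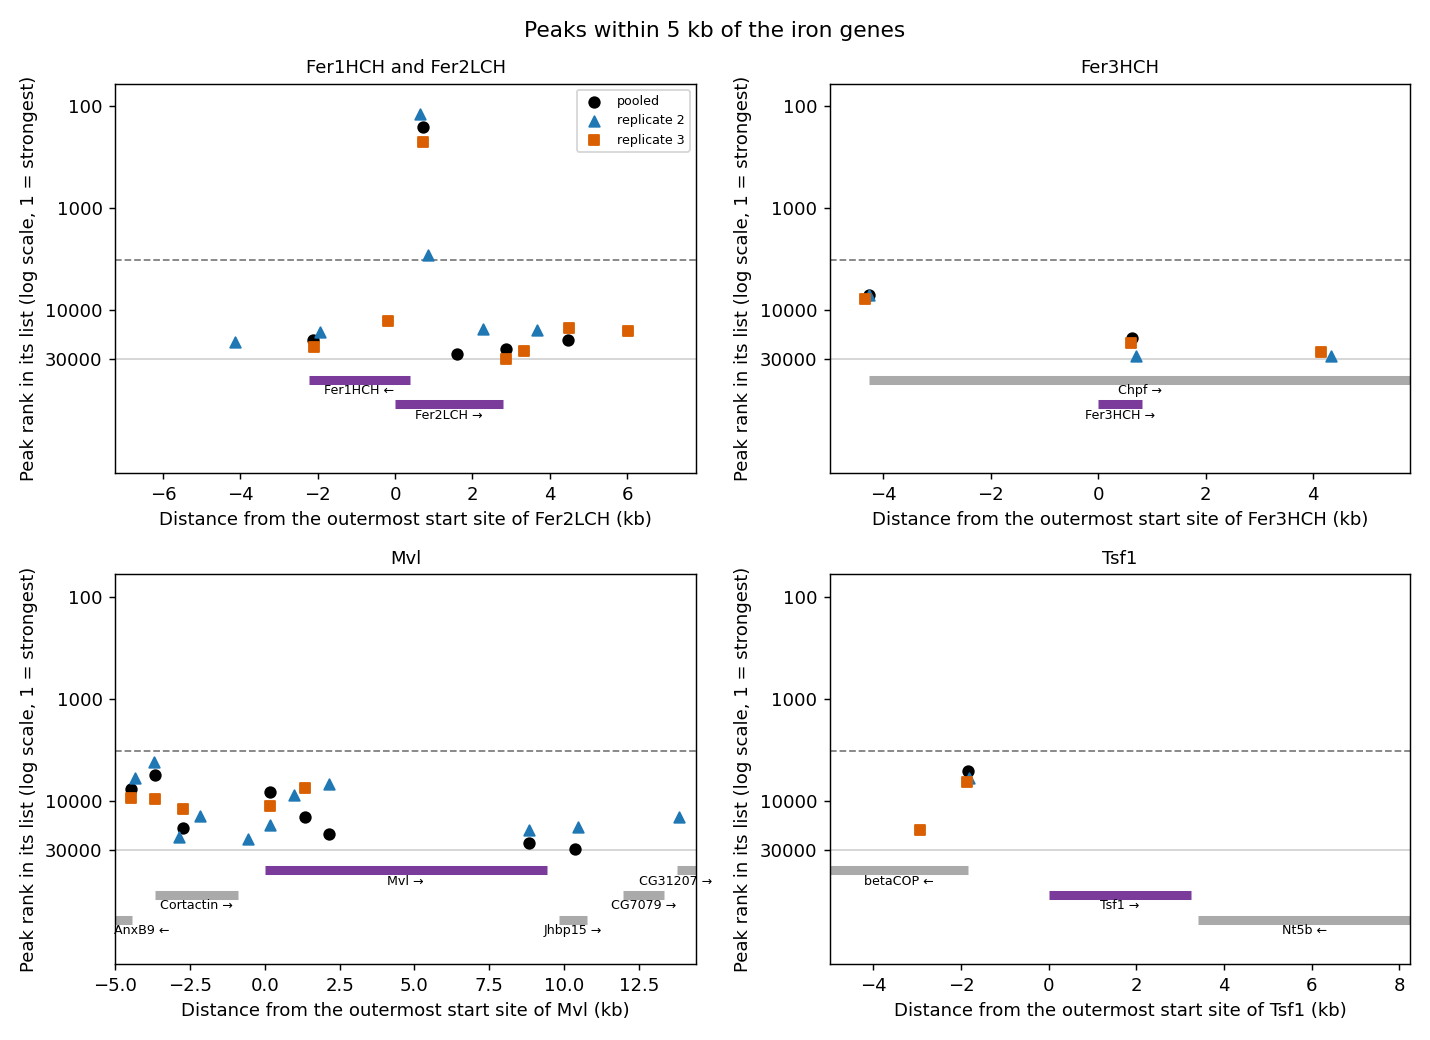
Peaks of the pooled list (circles), replicate 2 (triangles) and replicate 3 (squares) within 5 kb of the 5 genes, by distance in kb from the outermost start site in the direction of transcription (horizontal axis) and by rank in their own list (vertical axis, log scale, strongest at the top). The dashed line marks rank 3205, the end of the thresholded list for pooled peaks, the pale line marks the last rank, 30000, and bars below it show the genes, the 5 iron genes in purple. The ferritin pair has 1 peak at ranks 118 to 225, and every pooled peak of the other 3 genes lies below the dashed line.

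The replicates placed the ferritin summit at different points. In replicate 3 the summit was 1 bp from the pooled one, and in replicate 2 it was 64 bp away, at 30388460. Among the 3172 thresholded peaks with a summit of replicate 2 within 150 bp, the median distance was 9 bp, and 8.80% were at least as far apart as this one. Replicate 2 also had a second, weaker peak on the other side of the pooled summit, with its summit at 30388668, a signal of 35.1, rank 2865 and a −log10 q-value of 2.64. Only 2.34% of the thresholded peaks had 2 or more summits of replicate 2 within 150 bp, and 1.84% had so many of replicate 3. The second summit of replicate 2 fell in the second exon of the Fer2LCH transcripts RA and RB, within their 5' untranslated region, and 162 bp upstream of the start of RD and RE. Replicate 3 listed no summit within 150 bp of it other than its main one.

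Within 100 bp of the pooled summit, the sequence held none of the promoter, leucine zipper or metal response words that were searched. A panel of 12 motifs was searched on both strands within 100 bp of the summit, and 1 of them matched. This was the GATA word TGATAA, 60 bp from the summit and inside the second exon of Fer2LCH. This word was present at 16.8% of all thresholded peaks. There was no match to the relaxed Cnc-Maf word TGACNNNGC (present at 5.74% of thresholded peaks), the Maf extended word TGCTGAC (2.28%), the AP-1 word TGACTCA (2.15%) or the cyclic AMP response word TGACGTCA (0.343%). There was also no match to the DRE TATCGATA (5.74%), motif 1 GGTCACAC (3.59%), the Zelda word CAGGTAG (0.842%), the GAGA word GAGAGAG (3.56%), TATAAA (30.1%), or the metal response words TGCACNC (9.64%) and TGCGCNC (6.46%). Within 50 bp of the summit none of the 12 motifs matched in the form searched. TGATAA was the only GATA form in the panel. The form AGATAA was not searched, and its share over the thresholded peaks was not counted. By eye it can be read on the minus strand of the printed window directly beside the pooled summit. It can also be read on that strand at other places in the same window. The relaxed Cnc-Maf word can overlap the AP-1 word, the extended Maf word and motif 1. G and C made up 36.3% of the window, against a median of 36.8% over the thresholded peaks.

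The second summit of replicate 2 had further words around it, and its window overlapped that of the pooled summit. An AP-1 match lay 9 bp from that summit on the minus strand, at 30388656-30388662. It was inside the thresholded ferritin peak, which ends at 30388666, but more than 100 bp from the pooled summit. The match is shown in capitals in a short plus-strand stretch of RefSeq sequence, chr3R:30388645-30388673.
Second ferritin summit of replicate 2: caaccctgtcgTGAGTCAccttccagcag

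The window of this weaker summit also held TGCACNC at 2 places, 32 bp and 90 bp away, and TGCGCNC 67 bp away, and its GC content was 50.7%. The nearer TGCACNC match was likewise inside the thresholded peak. The TGATAA match of the pooled summit was in this window too, 84 bp away. These matches are letters in a window, and no binding of another factor was measured.

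The other pooled peaks of the ferritin locus were weak. With the strong peak counted, the pooled list had 3.97 peaks per 10 kb in the window of Fer1HCH and 3.91 in that of Fer2LCH. Over the chromosome arms it had 2.24. The 2 windows overlap and hold the same 5 pooled peaks. Besides the strong peak, the pooled list had 4 more within 5 kb of the pair, with signals from 21.2 to 25.3 and ranks from 19591 to 26969. Their −log10 q-values were 0.10 to 0.21. None of these 4 was found in replicate 2 within 150 bp, and 3 were found in replicate 3, at ranks from 14809 to 29989. Replicate 3 alone also listed a summit 9 bp from an inner start site of Fer1HCH, with a signal of 18.1 and rank 12655. The nearest thresholded summits on either side were 62.0 kb away, at aralar1 (signal 191, rank 576), and 83.4 kb away, with CG34300 as the gene of the nearest start site (signal 76.7, rank 2913). The median distance from a thresholded summit to its nearest neighbour was 6.07 kb, and 3.65% of summits had their nearest neighbour as far off as the ferritin summit or farther.

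**Figure D2:**
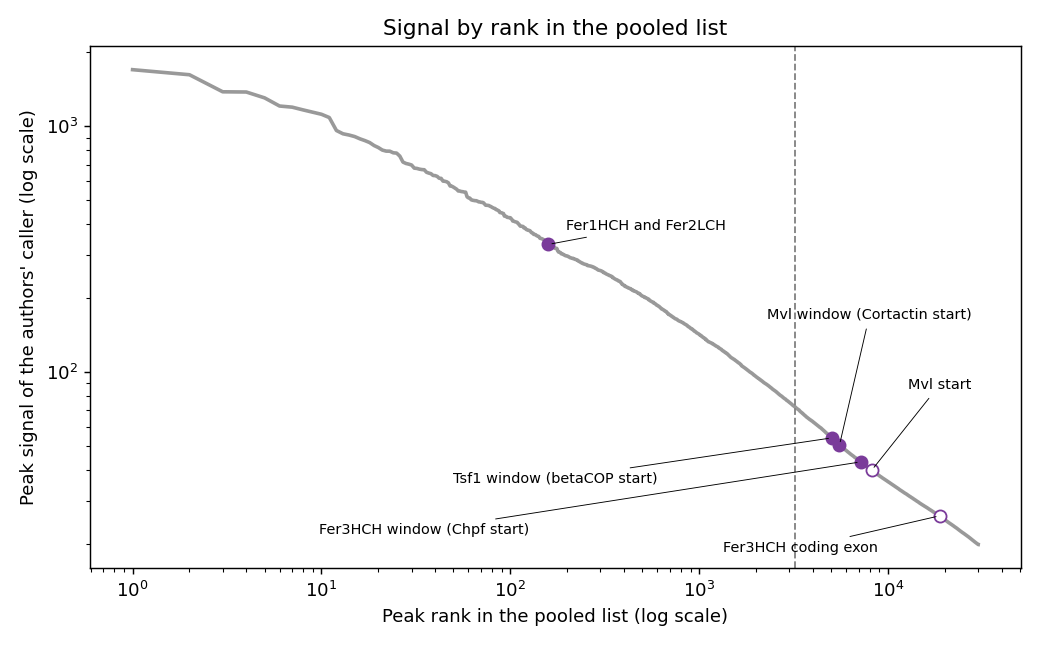
Signal of each of the 30000 pooled peaks (vertical axis, the caller's value, log scale) against its rank (horizontal axis, log scale). Filled points are the strongest pooled peak in the window of each gene, open points the peaks at the Mvl start and in the Fer3HCH coding exon, and the dashed line is rank 3205. The ferritin peak has a signal of 331, and the strongest peaks of the other 3 windows have signals of 43.1 to 54.0.

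The other ferritin gene, Fer3HCH (FBgn0030449, chrX:13107382-13108194, minus strand), encodes a mitochondrial ferritin. It lies inside an intron of Chpf, a gene of chondroitin synthesis, in both Chpf transcripts that span it. Its own peak was among the weak ones. The summit at 13107570, in the coding exon and 624 bp downstream of the start, had a signal of 26.0 and rank 18737 in the pooled list. The matching peaks ranked 28374 in replicate 2 and 20894 in replicate 3. The −log10 q-value was 0.23 in the pooled list, 0.08 in replicate 2 and 0.24 in replicate 3. Of the protein-coding genes, 53.3% had a pooled peak of at least that rank within 1 kb of a start site, and 36.7% had none. The strongest peak within 5 kb belonged to the start of Chpf, with its summit at 13112470, 8 bp from that start and 4276 bp from Fer3HCH. It had a signal of 43.1 and rank 7159, and ranked 7033 in replicate 2 and 7838 in replicate 3.

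Mvl (FBgn0011672, chr3R:21051383-21060800, minus strand) encodes the fly member of the NRAMP family, which carries iron and manganese across membranes. A weak entry of the pooled list lay at its own promoter. The summit was at 21060631, 22 bp downstream of the start shared by 4 of its 6 transcripts. This peak had a signal of 39.9 and rank 8197 in the pooled list, which was 0.55 times the lowest thresholded signal. Replicate 2 ranked the same place 17052 and replicate 3 ranked it 11230. The −log10 q-value was 0.92 in the pooled list, 0.22 in replicate 2 and 0.71 in replicate 3, so binding at this start was not established. Further pooled peaks in the Mvl gene lay 1200 bp downstream of that start (rank 14367) and 1997 bp downstream of it (rank 20911), and each was matched in 1 replicate only. Another, at 21051981 in the 3' untranslated region, ranked 25893 and was matched in replicate 2 only, at rank 19205. Replicate 2 alone listed a summit 831 bp downstream of the same start, at rank 8841. Of the 12 motifs, the start peak of Mvl held the metal response word TGCACNC 9 bp and 18 bp from the summit, TGCGCNC 76 bp and GAGAGAG 64 bp from it. The metal response words were not limited to iron genes. The peak at the Chpf start held TGCACNC 44 bp from its summit. The peak at the start of AnxB9, near Mvl, held TGCGCNC 28 bp from its summit. The pooled peaks at the starts of the neighbours Cortactin and betaCOP held neither word. Of all thresholded peaks, 9.64% held TGCACNC and 6.46% TGCGCNC. Replicate 3 ranked its match to the peak 1200 bp downstream 7477, the strongest peak of that replicate in the Mvl window. Replicate 2 ranked its match to the peak 1997 bp downstream 6849.

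The strongest pooled peak of the Mvl window was at the neighbouring gene Cortactin, which encodes an actin-binding protein. Its summit at 21064485 was 14 bp from the Cortactin start and 3685 bp upstream of Mvl, with a signal of 50.4 and rank 5526. It ranked 4163 in replicate 2 and 9521 in replicate 3. The start of the annexin gene AnxB9, read in the opposite direction, had the next peak, with a signal of 41.4 and rank 7665. Over the whole window of Mvl the pooled list held 8 peaks, or 4.12 per 10 kb, where the chromosome arms together held 2.24 per 10 kb. The windows of Fer3HCH and Tsf1 were below that value, at 1.85 and 0.754 per 10 kb.

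Tsf1 (FBgn0022355, chrX:18387084-18390344, plus strand) encodes transferrin, the iron carrier of the haemolymph. No list had a summit inside the gene or within 1 kb of its 2 start sites, and the other 4 genes all had one in the pooled list, as did 63.3% of protein-coding genes. The lists hold 30000 peaks and no lower ones, so weaker enrichment at Tsf1 was not measurable. The only pooled peak within 5 kb was at the start of betaCOP, a subunit of the COPI vesicle coat, with its summit at 18385233, 9 bp from that start and 1851 bp from the nearest Tsf1 start. It had a signal of 54.0, which was 0.75 times the lowest thresholded signal, and rank 5049. Replicate 2 ranked it 5944 and replicate 3 ranked it 6516.

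Of the pooled peaks searched in the 5 windows (the ferritin peak, 2 at Fer3HCH, 3 at Mvl and 1 at Tsf1), the betaCOP peak was the only one with the relaxed Cnc-Maf word. The match lay 15 bp from the summit and overlapped a match to motif 1, the promoter element bound by M1BP, 18 bp from the summit on the other strand. The bases of both matches are in capitals in the plus-strand stretch of RefSeq sequence, chrX:18385202-18385231, which is antisense to betaCOP.
Start of betaCOP: gctaacaggGTGTGACCGTGCgcggcgccg

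In the windows of Fer3HCH, Mvl and Tsf1, then, the strongest pooled peak sat 8, 14 and 9 bp from the start of a neighbour and not at the iron gene. These neighbour peaks were also below the threshold. In the same order, their −log10 q-values were 1.13, 1.73 and 2.05 in the pooled list. They were 0.86, 1.77 and 1.07 in replicate 2 and 1.25, 0.95 and 1.67 in replicate 3. Of the 2500 pooled peaks that followed the first 5000, 340 (13.6%) lay within 50 bp of an annotated start site. Within 5 kb of the gene, 41.8% of all protein-coding genes had a thresholded summit. Here again 2 of the 5 genes had one, both of them through the ferritin peak. The nearest thresholded summits were 13.0 kb from Fer3HCH at CG2200 (rank 3026), 12.6 kb from Mvl at r-l (rank 2610) and 16.2 kb from Tsf1 at CrebB (rank 1545). CrebB is itself a leucine zipper factor.

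**Figure D3:**
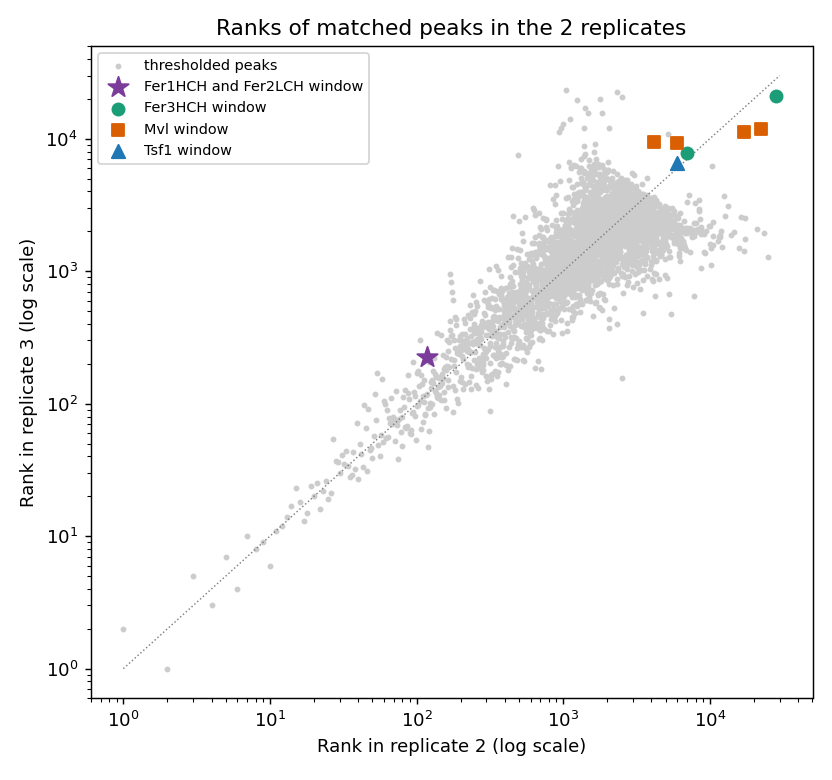
Rank in replicate 2 (horizontal axis) against rank in replicate 3 (vertical axis), both on log scales, for thresholded peaks (grey) and for the pooled peaks of the gene windows that had a summit within 150 bp in both replicates (coloured symbols). The dotted line marks equal ranks. The ferritin peak lies towards the lower left, among the strongest peaks, at ranks 118 and 225, and the other 7 peaks lie between ranks 4163 and 28374.

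By the strongest peak of each window, the ferritin pair came ahead of Fer3HCH, Mvl and Tsf1 in both replicates, at rank 118 in replicate 2 and 225 in replicate 3, with the others between 4163 and 7838. Among the other 3 the order was not the same in both. The Mvl window led in replicate 2 at 4163, ahead of Tsf1 at 5944 and Fer3HCH at 7033. In replicate 3 the Tsf1 window led at 6516, ahead of Mvl at 7477 and Fer3HCH at 7838. The Tsf1 and Fer3HCH ranks are those of the betaCOP and Chpf starts. The 2 Mvl ranks belong to different sites, the Cortactin start in replicate 2 and a summit 1194 bp downstream of the Mvl start in replicate 3. The Cortactin start ranked 9521 in replicate 3. Of the 16 pooled peaks in the windows, 8 were found in both replicates within 150 bp. For the 15 of them below the threshold the count was 7 (46.7%), where 37.2% of all pooled peaks below the threshold were found in both. Of the thresholded peaks, 98.6% were.

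Other genes of iron metabolism were also examined, from a list of 24 that covered iron sensing and transport, haem, and iron-sulfur clusters. Of the 22 matched to a single gene, 2 had a thresholded summit within 1 kb of a start site (9.09%, exact binomial 95% interval 1.12 to 29.2, for counting error over genes only), where 19.4% of all protein-coding genes had one. Among them was bcn92, which encodes a small partner protein of the cysteine desulfurase that builds iron-sulfur clusters. Its peak at chrX:2149538-2149927 had a signal of 109 and rank 1625, with ranks of 1682 in replicate 2 and 2197 in replicate 3. The summit was 86 bp upstream of the bcn92 start.

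The bcn92 peak held the relaxed Cnc-Maf word TGACNNNGC, which the ferritin peak lacked and which was present at 5.74% of the thresholded peaks. The word lay 3 bp from the summit. It is in capitals in the sequence below, from RefSeq, the part of the summit window outside exons, chrX:2149648-2149833 on the minus strand, which is the direction of transcription of bcn92 and shows the word as its reverse complement.
bcn92: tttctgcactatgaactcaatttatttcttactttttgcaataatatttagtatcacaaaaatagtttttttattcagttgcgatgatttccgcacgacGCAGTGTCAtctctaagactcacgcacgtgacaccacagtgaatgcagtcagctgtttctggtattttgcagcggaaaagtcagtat

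No gene of iron sensing and transport had a thresholded summit within 1 kb (0 of 7), while iron-sulfur genes had 1 of 7. With so few genes the exact interval for 0 of 7 runs up to 41.0%. The iron regulatory gene Irp-1A had a pooled peak 12 bp from its start with a signal of 56.4 and rank 4723. The frataxin gene fh (rank 5031) and the ferredoxin gene Fdx2 (rank 4029) had pooled peaks nearer to the starts of their neighbours Bap111 and CG15012 than to their own. The transferrin gene Tsf3, the iron regulatory gene Irp-1B and the iron-sulfur genes Nfs1 and Hsc20 had no pooled summit within 1 kb, as was the case for Tsf1. These were 4 of the 22 genes, where 36.7% of all protein-coding genes had none. When the reach was widened to 5 kb around the gene, 12 of the 22 genes had a thresholded summit, beside 41.8% of all protein-coding genes.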

How the data were processed

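Peak lists on dm6 were used, as deposited by the authors: 1 list for each replicate, 1 for the pooled replicates and 1 that passed the authors' optimal threshold of the irreproducible discovery rate. Per the deposited README files, the replicate and pooled lists were derived from alignments, and the thresholded list from the other 3. The deposited signal is the caller's value per peak; the deposited −log10 q-value was not used for ranking. Names of the caller and aligner and the value of the threshold: not given in the sources used here. Lists on dm3 were not used, since no annotation of that build was used. Sonicated fragments were 200 to 800 bp, per the labels.

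Genes came from Ensembl release 115, without transposable elements, on the main chromosome arms. Sequence came from RefSeq Release 6, whose arms held every peak. Coordinates are 1-based. A gene was counted when a summit lay within 1 kb of any start site. Summits within 150 bp were matched between lists. Motifs were searched within 100 bp of a summit. No test was made over the genes. The counting step was tested on simulated data. Named are all 5 genes, genes with a start within 1 kb of a thresholded summit or of the best peak in a window, and iron genes with a thresholded summit; CG34300, Bap111, CG15012 and the iron genes without a thresholded summit were named after their values were seen. The 5 genes and the lists were chosen with earlier results of these data known. Of 24 further iron genes, 22 were matched; 1 enters the counts only and is not reported here. Computation used Python 3.11.15, numpy 2.4.6, pandas 2.3.3, scipy 1.17.1 and matplotlib 3.10.9.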

Additional observations from a re-analysis of the deposited data

How the results depend on the processing

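The ferritin pair remained the 2 bound genes of the set within 500 bp of a start site, within 5 kb of the gene, from the outermost start only, among the 1602 strongest thresholded peaks, and in the 3205 strongest peaks of either replicate alone (2 to 2 genes). The count of bound iron genes outside the set was 2 of 22; it moved to 12 within 5 kb and to 1 among the 1602 strongest peaks, and ran from 2 to 3 with 1 replicate left out, Fdx2 being added without replicate 3. The ferritin rank of 159 became 118 to 225 with 1 replicate left out. The best rank near Fer3HCH, 7159 within 5 kb, was 18737 within 1 kb of its start and 7033 to 7838 with 1 replicate left out. For the Mvl window the rank of 5526, at the Cortactin start, was 8197 within 1 kb of an Mvl start. With 1 replicate left out it was 4163, at the Cortactin start, or 7477, at a different site inside Mvl. For Tsf1 the rank of 5049 was 5944 to 6516 with 1 replicate left out, and there was no value within 1 kb. Peaks found in both replicates numbered 8 of 16, and 9 with summits matched within 300 bp. Panel motifs at the ferritin summit went from 1 to 0 within 50 bp. No paired analysis was possible because the series has 1 group. The unknown read depth and the cut of each list at 30000 peaks limit what can be said of weak sites.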
